A study of Homo sapiens with 12 samples.

Results

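Collagen chain genes encode the alpha chains from which collagen molecules are assembled. They were taken as every row of the expression table whose symbol reads COL, a number, A and a number, which gave 44 of 27685 rows. Of the 44 genes, 34 passed the filter on low counts, as did 15769 rows in all. RNA of U251 cells, an established human glioblastoma cell line used at passages 14 to 18, was sequenced in 12 libraries. The series asks how a long noncoding RNA, named INCA1 in the study, takes part in the interferon signalling of tumour cells. Interferon gamma (IFNγ) is a cytokine of activated lymphocytes that signals through JAK kinases.

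The libraries formed 4 groups of 3. The first held cells that stably expressed a short hairpin RNA against INCA1 and were treated with IFNγ for 24 h (shINCA1 IFNγ), and the next held untreated cells with the same hairpin (untreated shINCA1). Cells that stably expressed a control hairpin formed the other two, with the same IFNγ treatment (shCTRL IFNγ) or without it (untreated shCTRL). Every group therefore carried a stably expressed hairpin, and cells without a hairpin were not analysed here. As far as the labels tell, each hairpin was present in 1 line, so an effect of the hairpin and any other difference between the 2 lines cannot be told apart. Nothing in the labels says that the 3 replicates of a group were grown as separate cultures. The p-values therefore rest on a spread that may be technical. The level of the targeted RNA could not be checked, because the table's row named INCA1 belongs to another, protein-coding gene.

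Library totals ranged from 46525032 to 66242859 estimated counts, with 32 to 39 of the 44 collagen genes above 0 in a library. Levels are in CPM, the count divided by the TMM-scaled library size, and each group has 3 libraries throughout. Genes were tested with edgeR's quasi-likelihood test and called at a Benjamini-Hochberg adjusted p under 0.05 over all 15769 tested rows. Differences are log2 changes with their standard error (SE). Of the markers used to check the glial label, VIM had 1818 ± 41.7 CPM in untreated shINCA1 cells and 2531 ± 58.6 CPM in untreated shCTRL cells (SD, n = 3 each). GFAP, the astrocyte filament protein, was low in both, at 0.348 ± 0.172 CPM in untreated shINCA1 and 1.59 ± 0.259 CPM in untreated shCTRL cells. All 9 tested markers of glioma and astrocytes were called between the untreated lines, 7 lower and 2 higher in shINCA1 cells, with a median log2 difference of -2.03. Over all tested rows 56.9% were called. PDPN (-3.71 ± 0.28 SE), S100B (-2.88 ± 0.39) and NES (-2.03 ± 0.06) were lower, ALDH1L1 was at 0 in shINCA1 cells, and OLIG2 (1.92 ± 0.36) and CD44 (0.43 ± 0.02) were higher. With IFNγ 7 were again lower and 2 higher, with a median of -1.05. The glial markers thus differed between the lines alongside the collagen genes, and their part in the collagen differences was not tested. Endothelial markers summed to 9.65 to 11.4 CPM in untreated shINCA1 and 7.09 to 7.87 CPM in untreated shCTRL cells. The 3 tested were all higher in untreated shINCA1 cells, or 100%, against 56.9% of all tested rows. With IFNγ 2 were higher and 0 lower, or 66.7%, against 58.9%. Immune markers summed to 2.3 to 2.56 CPM in untreated shINCA1 and 1.14 to 1.58 CPM in untreated shCTRL cells, with CD3E and AIF1 at 0 in all libraries.

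Collagens are the main structural proteins of the extracellular matrix, and each molecule is a triple helix of alpha chains encoded by the same gene or by several genes. Fibril-forming collagens build cables, network-forming collagens build the sheets of basement membranes, and other classes link fibrils to each other, anchor the epidermis or span the cell membrane. Normal brain tissue holds little fibrillar collagen outside its vessels and coverings, whereas glioblastomas can deposit fibrillar and basement membrane collagens.

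The summed level of the collagen genes was only slightly lower in shINCA1 than in shCTRL cells, while the genes that made it up differed widely. Collagen rows took 0.204% ± 0.00796 of the counts in shINCA1 IFNγ cells and 0.205% ± 0.00592 in untreated shINCA1 cells. Their share was 0.216% ± 0.00343 in shCTRL IFNγ cells and 0.230% ± 0.00762 in untreated shCTRL cells (SD, n = 3 each). In both conditions every shINCA1 library lay below every shCTRL library, and this share was not tested. Within the collagen counts, COL4A2 held the largest share in every group, at 25.3% ± 0.265 in shINCA1 IFNγ, 23.8% ± 0.0739 in untreated shINCA1, 20.1% ± 0.219 in shCTRL IFNγ and 19.0% ± 0.343 in untreated shCTRL cells. COL17A1 held 17.5% ± 0.371 and 19.1% ± 0.936 in shINCA1 cells with and without IFNγ, and 0.213% ± 0.00257 and 0.202% ± 0.0195 in shCTRL cells with and without it. COL6A3 held 0.111% ± 0.00342 and 0.0965% ± 0.0251 in shINCA1 cells with and without IFNγ, and 3.3% ± 0.0739 and 3.32% ± 0.0423 in shCTRL cells with and without it (SD, n = 3 each). COL1A2 held none in shINCA1 cells, and 2.01% ± 0.132 and 1.83% ± 0.0338 in shCTRL cells with and without IFNγ. The larger share of COL17A1 in shINCA1 cells thus stood beside lower shares of COL6A3 and COL1A2, while the share of COL4A2 was larger too.

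**Figure D1:**
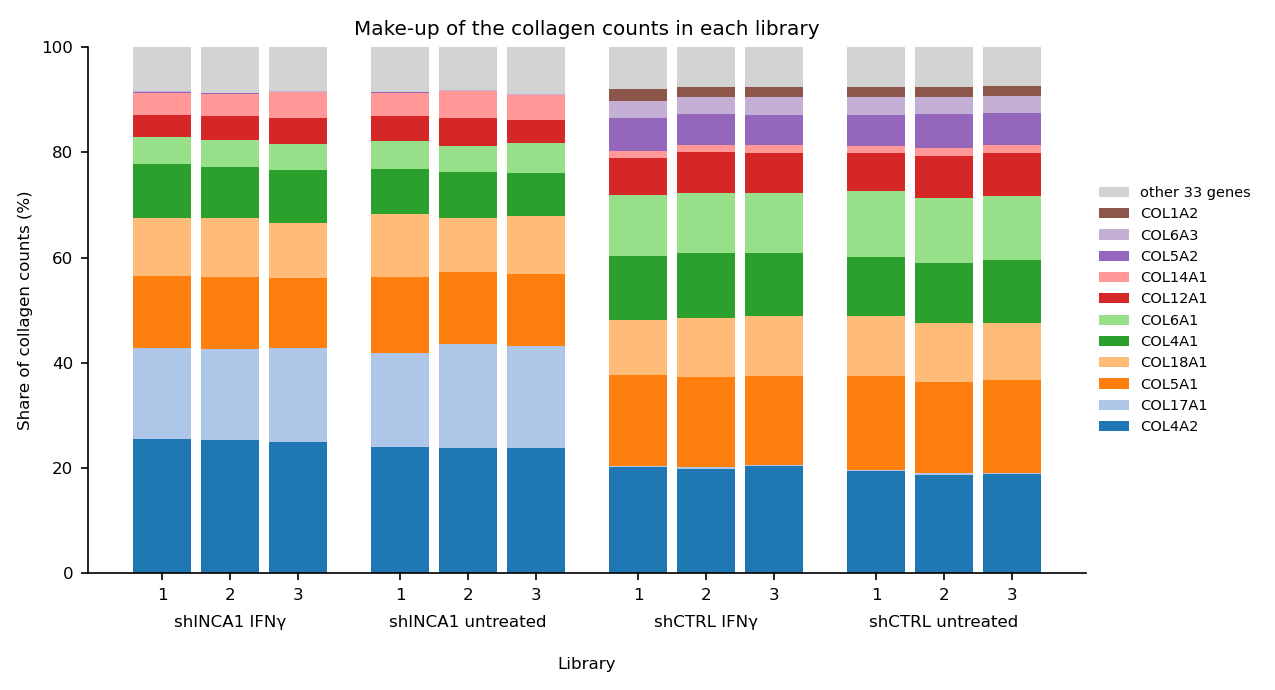
Make-up of the collagen counts in each of the 12 libraries, as percent of the counts in the 44 collagen rows; each bar is 1 library, and the bars of a group stand together. COL17A1 holds 17.5% and 19.1% on average in the shINCA1 groups and 0.213% and 0.202% in the shCTRL groups, and COL5A2 holds 0.112% and 0.108% in the shINCA1 groups and 6.01% and 6.18% in the shCTRL groups.

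Per kilobase of a reference transcript, the order of the collagen genes also differed. COL4A2 came first in all 4 groups, at 80.2 CPM per kb in shINCA1 IFNγ, 74.2 in untreated shINCA1, 69.2 in shCTRL IFNγ and 67.1 in untreated shCTRL cells. COL17A1 was second in shINCA1 cells, at 63.7 CPM per kb with IFNγ and 68.1 without. COL6A1 held the second place in shCTRL cells, at 60.0 CPM per kb with IFNγ and 66.9 without. In untreated shCTRL cells COL4A2 and COL6A1 differed by less than their spread, with SDs of 3.44 and 3.03 CPM per kb.

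Comparing untreated shINCA1 with untreated shCTRL cells showed which collagen genes differed between the hairpin lines without cytokine. Of the 34 tested genes, 10 were higher and 17 lower in shINCA1 cells, together 79.4% of them. Over all tested rows 56.9% were called, 27.4% higher and 29.5% lower, so calls between the lines were common for any gene. By at least 2-fold, 7 collagen genes were higher and 8 lower, against 6.44% and 6.09% of all tested rows. These are fitted folds. Tested against a fold of 2, 7 collagen genes were higher and 6 lower, against 529 and 583 of the 15769 tested rows. The median log2 difference of the 34 genes was -0.54, against -0.01 over all tested rows. For 29 of the 34 genes the 3 libraries of shINCA1 did not overlap the 3 of shCTRL, against 62.8% of all tested rows.

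By class, the counts that follow stand against 29.5% of all tested rows called lower and 27.4% called higher, and each class is small. Of the 10 tested fibril-forming chains, 7 were lower and 1 was higher. All 4 tested chains of the beaded filaments and anchoring fibrils were lower. Of the 8 tested basement membrane and network chains, 4 were higher and 2 lower. The 7 tested fibril-associated (FACIT) chains divided into 3 higher and 3 lower, and the 3 tested transmembrane chains into 2 higher and 1 lower. COL18A1 and COL26A1, the tested chains of the remaining class, were not called, although COL18A1 had an unadjusted p of 0.0351 and was called by DESeq2 and limma-voom. In bulk RNA, a smaller share of cells that express a gene and less of its RNA per cell cannot be told apart.

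**Figure D2:**
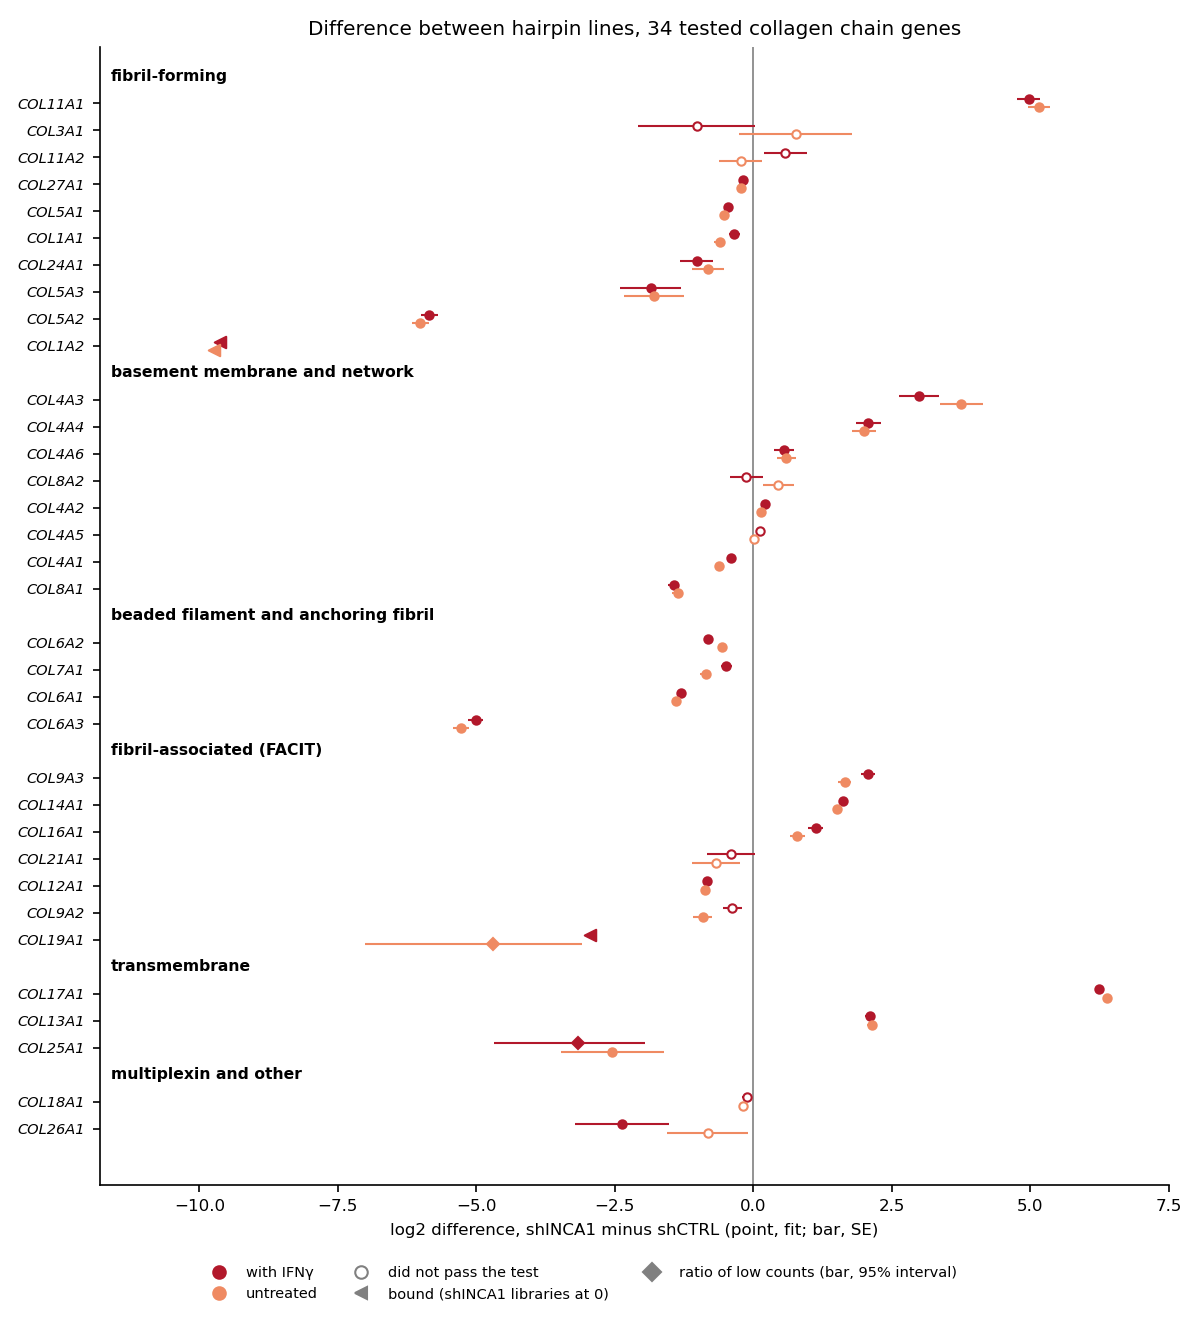
Log2 difference between the hairpin lines, shINCA1 minus shCTRL, for the 34 tested collagen genes by class, with IFNγ and untreated; points are fitted values with SE bars, filled where called, diamonds are ratios of low counts with 95% intervals and triangles are bounds where all shINCA1 libraries were at 0. The largest difference upward is that of COL17A1, at 6.24 with IFNγ and 6.38 untreated, and COL1A2, COL5A2 and COL6A3 lie farthest to the left.

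Of the fibril-forming chains, COL1A2, on chromosome 7, encodes the second chain of type I collagen, the main collagen of skin, bone and tendon. It was listed at 0 counts in all 6 shINCA1 libraries. In shCTRL cells it had 47.1, 45 and 41.8 CPM with IFNγ and 42.4, 41.2 and 40.9 CPM without. The groups did not overlap, and every shCTRL library held at least 1941 counts. Against the floor of 3 counts per library, COL1A2 was at least 853.8-fold lower in untreated shINCA1 than in untreated shCTRL cells, and at least 792.3-fold lower with IFNγ (adjusted p = 2.25e-10 and 2.7e-10). Ordered by fitted difference, it stood lowest of the 15769 tested rows in both comparisons. An antisense RNA, COL1A2-AS1, had 0, 1 and 0 counts in shINCA1 IFNγ cells against 8, 8 and 8 in shCTRL IFNγ cells, and none in untreated cells of either line. The library kit keeps the strand, but no source used here says whether the counting did. Reads of the antisense pair can therefore not be told apart.

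COL1A1, on chromosome 17, encodes the other chain of type I collagen. It had 20.6, 15.9 and 18.6 CPM in untreated shINCA1 cells, against 30.6, 26.3 and 26.9 CPM in untreated shCTRL cells. It was lower in shINCA1 cells by a log2 difference of -0.61 ± 0.10 (SE, adjusted p = 0.000271). The chain that partners COL1A2 was thus present in every library, at 0.44 ± 0.0604 and 0.577 ± 0.0374 times the level per kb of COL1A2 in shCTRL cells with and without IFNγ (SD, n = 3 each). Type III collagen, whose only chain is COL3A1, was close to the floor everywhere, with 0 to 15 counts per library, and was not called.

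COL5A2, on chromosome 2, and COL5A1, on chromosome 9, encode the chains of type V collagen, which starts and limits the growth of type I fibrils. COL5A2 had 1.67, 2.33 and 2.48 CPM in untreated shINCA1 cells, against 142, 141 and 137 CPM in untreated shCTRL cells. The log2 difference was -6.01 ± 0.16 (SE, adjusted p = 5.01e-11). COL5A1 had 298, 268 and 269 CPM in untreated shINCA1 cells, against 421, 384 and 397 CPM in untreated shCTRL cells, a log2 difference of -0.52 ± 0.05 (SE, adjusted p = 3.03e-06). Both chains were lower, but by very different amounts. Per kb, the ratio of COL5A1 to COL5A2 was 101 ± 22.6 and 108 ± 31.3 in shINCA1 cells with and without IFNγ, and 2.31 ± 0.0836 and 2.32 ± 0.101 in shCTRL cells with and without it (SD, n = 3 each). COL5A3, another chain of this type, had 0.0499 to 0.453 CPM in untreated shINCA1 and 0.637 to 1.15 CPM in untreated shCTRL cells, a log2 difference of -1.79 ± 0.54 (SE, adjusted p = 0.0142). This call was lost without shCTRL untreated library 3 (adjusted p = 0.0645).

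COL11A1, on chromosome 1, encodes a chain of type XI collagen, which nucleates fibrils in cartilage and is close in sequence family to type V. It was the fibril-forming chain that was higher in shINCA1 cells, with 14.0, 12.3 and 13.3 CPM in untreated shINCA1 cells, against 0.464, 0.318 and 0.306 CPM in untreated shCTRL cells. The log2 difference was 5.16 ± 0.20 (SE, adjusted p = 1.18e-09), and the groups lay far apart. COL11A2, the partner chain on chromosome 6, had 1.08, 0.682 and 1.02 CPM in untreated shINCA1 cells, against 1.28, 0.764 and 1.20 CPM in untreated shCTRL cells. Its libraries overlapped, and it was not called. Of the other fibril-forming chains, COL24A1 and COL27A1 were lower in shINCA1 cells, by log2 differences of -0.82 ± 0.28 and -0.23 ± 0.05 (SE). The call of COL24A1 was lost without shCTRL untreated library 1 or 3.

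The sequence before the COL11A1 start is shown because this gene and COL17A1 had the largest differences upward. It covers the 250 bases before the RefSeq start in GRCh38.p14 (chr1:103108523-103108772, minus strand), a build other than the hg19 of the counts. In this and the following sequences, capitals mark matches on either strand to TATAA (the TATA box), CCAAT (the CCAAT box), GGGCGG (a GC box), TGANTCA (an AP-1 element) or TTCNNNGAA (a palindrome of cytokine-responsive promoters). These motifs occur in 18.9%, 32.0%, 42.6%, 6.57% and 6.57% of 35116 promoter windows of the same length.
COL11A1: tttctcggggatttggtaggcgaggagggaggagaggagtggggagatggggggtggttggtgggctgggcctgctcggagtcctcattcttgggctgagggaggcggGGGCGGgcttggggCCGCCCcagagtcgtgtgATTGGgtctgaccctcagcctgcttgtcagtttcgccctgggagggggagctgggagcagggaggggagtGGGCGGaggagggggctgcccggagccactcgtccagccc
The window holds 3 GC boxes and 1 CCAAT box and no TATAA match.

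Transmembrane collagens are anchored in the plasma membrane. COL17A1, on chromosome 10, encodes the sole chain of type XVII collagen, a part of the hemidesmosomes that fix basal epithelial cells to their basement membrane. It had 375, 392 and 380 CPM in untreated shINCA1 cells, against 4.31, 4.90 and 4.55 CPM in untreated shCTRL cells. The log2 difference was 6.38 ± 0.05 (SE, adjusted p = 2.51e-15), with no overlap and little spread in either line. Among all tested rows COL17A1 ranked 62nd from the highest fitted difference.

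Markers of epithelial cells were measured beside it. Their summed level was 244 to 267 CPM in untreated shINCA1 cells, against 94.9 to 99.7 CPM in untreated shCTRL cells. Most of it was KRT18, at 247 ± 11.4 CPM in untreated shINCA1 and 92.1 ± 1.57 CPM in untreated shCTRL cells (SD, n = 3 each). Of the 7 markers tested, 4 were higher and none lower between the untreated lines, or 57.1% called, against 56.9% of all tested rows. With IFNγ 4 were higher and 1 lower, or 71.4%, against 58.9%. The lower one was TP63, a regulator of basal epithelia, with a log2 difference of -2.16 ± 0.77 (SE, adjusted p = 0.0297) with IFNγ and -1.57 ± 0.82 (adjusted p = 0.125) untreated. EPCAM and CDH1 did not pass the filter, with at most 0.11 CPM, and GRHL2 was at 0 in all groups. KRT5, a keratin of basal epithelia, was not called in either condition, at -0.43 ± 0.48 untreated and -0.22 ± 0.49 with IFNγ (SE). Its partner KRT14 had 1.89 ± 0.245 CPM in untreated shINCA1 and 0.238 ± 0.142 CPM in untreated shCTRL cells (SD, n = 3 each), a log2 difference of 2.96 ± 0.38 (SE, adjusted p = 3.31e-05). The part of these genes in the difference of COL17A1 was not tested.

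The 250 bases before the COL17A1 start (chr10:104085881-104086130, minus strand, GRCh38.p14, RefSeq) are shown with the same capitals.
COL17A1: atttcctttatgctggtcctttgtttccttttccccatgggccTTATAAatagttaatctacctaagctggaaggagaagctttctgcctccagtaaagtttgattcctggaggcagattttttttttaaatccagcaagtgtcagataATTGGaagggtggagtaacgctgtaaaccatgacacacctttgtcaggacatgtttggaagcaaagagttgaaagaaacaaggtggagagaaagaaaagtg
The window has overlapping TATAA matches on both strands and 1 CCAAT match, and 40.4% of its bases are G or C, against a median of 58% over all promoter windows.

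COL13A1, also on chromosome 10, encodes the chain of type XIII collagen, a membrane protein of cell adhesion sites and of the nerve-muscle junction. It had 17.3, 19.0 and 19.6 CPM in untreated shINCA1 cells, against 4.04, 4.37 and 4.21 CPM in untreated shCTRL cells. The log2 difference was 2.15 ± 0.09 (SE, adjusted p = 1.59e-09). COL25A1, a transmembrane collagen of neurons, had 9, 7 and 0 counts in untreated shINCA1 cells, against 32, 28 and 26 counts in untreated shCTRL cells. Its call (log2 difference -2.55 ± 0.93 SE, adjusted p = 0.0339) was lost without any of 6 libraries. These were the 3 of untreated shCTRL, shCTRL IFNγ library 2 and untreated shINCA1 libraries 2 and 3, with adjusted p-values of 0.053 to 0.0872.

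The genes plotted by library were picked with their differences known, and all separated by line. Over all tested rows, 62.8% untreated and 66.5% with IFNγ also did not overlap between the lines.

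**Figure D3:**
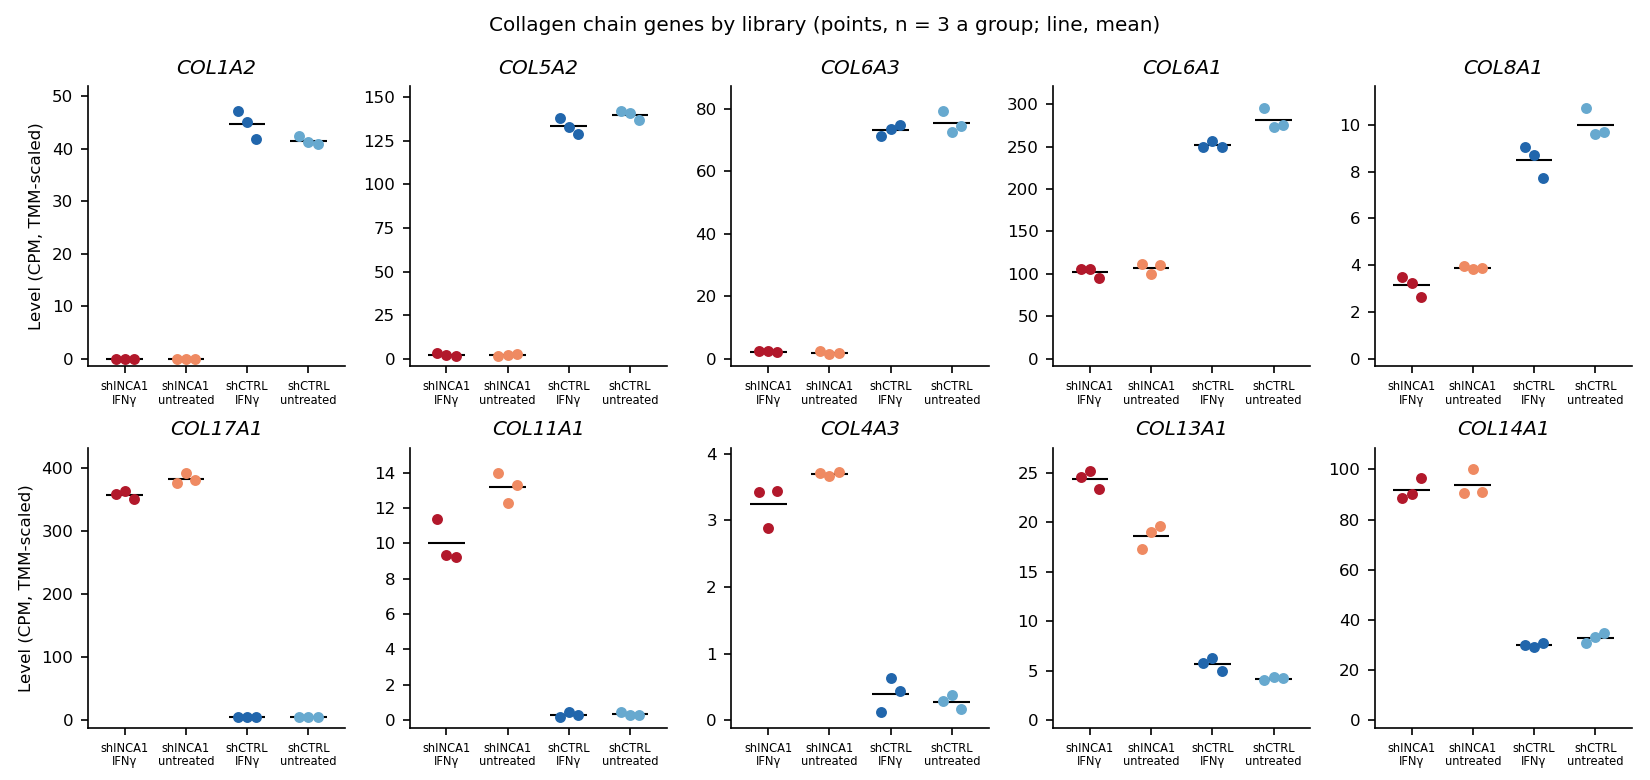
Level of 10 collagen genes in each library, in CPM, with shINCA1 groups left of shCTRL groups; points are libraries and lines are means of 3. In the upper row every shINCA1 library lies below every shCTRL library, as COL5A2 shows with 2.16 CPM on average in untreated shINCA1 and 140 CPM in untreated shCTRL cells; in the lower row every shINCA1 library lies above.

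Among the beaded filament and anchoring fibril chains, COL6A1 and COL6A2 on chromosome 21 and COL6A3 on chromosome 2 encode the chains of type VI collagen, which forms a microfibrillar net around cells. COL6A3 had 2.49, 1.38 and 1.96 CPM in untreated shINCA1 cells, against 79.2, 72.5 and 74.4 CPM in untreated shCTRL cells. The log2 difference was -5.28 ± 0.14 (SE, adjusted p = 6.03e-11). COL6A1 had 112, 99.8 and 110 CPM in untreated shINCA1 cells, against 296, 273 and 275 CPM in untreated shCTRL cells, a log2 difference of -1.39 ± 0.06 (SE, adjusted p = 1.37e-09). All 3 tested type VI chains were lower, and COL6A3 by far the most. COL6A2 had 28.1, 23.9 and 27.3 CPM in untreated shINCA1 cells, against 41.4, 38.7 and 37.2 CPM in untreated shCTRL cells, a log2 difference of -0.56 ± 0.07 (SE, adjusted p = 2.65e-05). Per kb, COL6A1 stood at 113 ± 0.744 and 145 ± 34.4 times COL6A3 in shINCA1 cells with and without IFNγ, and at 8.64 ± 0.249 and 9.35 ± 0.0873 times in shCTRL cells with and without it (SD, n = 3 each). The ratio of COL6A1 to COL6A2 was closer between the lines, with 2.90 ± 0.046 and 3.33 ± 0.0816 in shINCA1 cells against 4.06 ± 0.136 and 5.90 ± 0.143 in shCTRL cells, with and without IFNγ in each line.

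COL7A1, on chromosome 3, encodes the chain of the anchoring fibrils below the epidermis. It had 8.29, 7.60 and 8.46 CPM in untreated shINCA1 cells, against 16.1, 15.7 and 12.5 CPM in untreated shCTRL cells. The log2 difference was -0.86 ± 0.10 (SE, adjusted p = 2.01e-05). The window before the COL6A3 start is shown as that of the type VI chain that was lower by the most (chr2:237414165-237414414, minus strand, GRCh38.p14, RefSeq).
COL6A3: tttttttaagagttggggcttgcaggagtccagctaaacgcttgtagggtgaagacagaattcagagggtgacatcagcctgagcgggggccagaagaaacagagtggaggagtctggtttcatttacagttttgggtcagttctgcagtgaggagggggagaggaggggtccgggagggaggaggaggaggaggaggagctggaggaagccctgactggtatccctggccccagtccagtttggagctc
None of the motifs searched occurs in this window, which says only that these letters are absent from it.

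The basement membrane chains lie in pairs of neighbouring genes, of which COL4A3 and COL4A4 were higher together. COL4A3 and COL4A4, on chromosome 2, encode chains of the type IV collagen of the kidney filter and lung, and COL4A1 and COL4A2, on chromosome 13, those of most basement membranes. COL4A3 had 3.71, 3.66 and 3.72 CPM in untreated shINCA1 cells, against 0.282, 0.382 and 0.162 CPM in untreated shCTRL cells, a log2 difference of 3.76 ± 0.39 (SE, adjusted p = 5.14e-06). COL4A4 had 3.34, 4.34 and 4.27 CPM in untreated shINCA1 cells, against 0.961, 0.955 and 1.06 CPM in untreated shCTRL cells, a log2 difference of 2.0 ± 0.22 (SE, adjusted p = 7.86e-06). Both chains of this pair were higher in every shINCA1 library. COL4A5, which joins them in the same molecule, had 23.6, 24.1 and 25.6 CPM in untreated shINCA1 cells, against 23.5, 22.0 and 26.9 CPM in untreated shCTRL cells. It was not called, and the 95% interval of its log2 difference was -0.16 to 0.19. COL4A6, beside COL4A5 on the X chromosome, was higher, at 1.80 ± 0.0564 CPM in untreated shINCA1 and 1.19 ± 0.201 CPM in untreated shCTRL cells (SD, n = 3 each). Its call (log2 difference 0.59 ± 0.17 SE, adjusted p = 0.0115) was lost without untreated shCTRL library 2 (adjusted p = 0.051).

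The windows before the COL4A3 and COL4A4 starts are shown because the pair is read from opposite strands of 1 region and both genes were higher. Their starts lie 419 bases apart, and the windows share 82 bases (chr2:227164374-227164623, plus strand, and chr2:227164206-227164455, minus strand, GRCh38.p14, RefSeq).
COL4A3: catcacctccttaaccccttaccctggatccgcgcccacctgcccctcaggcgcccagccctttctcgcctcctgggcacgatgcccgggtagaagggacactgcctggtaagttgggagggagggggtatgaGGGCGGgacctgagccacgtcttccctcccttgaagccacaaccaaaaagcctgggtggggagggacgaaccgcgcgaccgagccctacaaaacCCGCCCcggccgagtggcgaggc
COL4A4: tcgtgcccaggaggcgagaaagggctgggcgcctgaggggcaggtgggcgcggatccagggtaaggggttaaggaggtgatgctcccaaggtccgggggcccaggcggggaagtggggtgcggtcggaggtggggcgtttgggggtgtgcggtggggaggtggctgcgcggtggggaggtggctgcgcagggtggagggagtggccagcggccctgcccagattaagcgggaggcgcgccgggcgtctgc
The COL4A3 window holds 2 GC boxes, and the COL4A4 window holds none of the motifs searched.

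COL4A1 had 177, 172 and 162 CPM in untreated shINCA1 cells, against 263, 254 and 269 CPM in untreated shCTRL cells, a log2 difference of -0.62 ± 0.04 (SE, adjusted p = 1.21e-07). COL4A2 had 496, 469 and 469 CPM in untreated shINCA1 cells, against 457, 414 and 426 CPM in untreated shCTRL cells, a log2 difference of 0.15 ± 0.04 (SE, adjusted p = 0.0104). The chains of this pair thus lay on opposite sides of zero. The call of COL4A2 was lost without untreated shCTRL library 2 (adjusted p = 0.0591) or untreated shINCA1 library 1 (adjusted p = 0.0545). Per kb, the ratio of COL4A2 to COL4A1 was 2.58 ± 0.0727 and 2.85 ± 0.0855 in shINCA1 cells with and without IFNγ, and 1.67 ± 0.0522 and 1.67 ± 0.0802 in shCTRL cells with and without it (SD, n = 3 each).

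These genes are also read in opposite directions from starts 127 bases apart, and the 126 bases between them are given in the direction of COL4A2 (chr13:110307158-110307283, plus strand, GRCh38.p14, RefSeq).
COL4A1-COL4A2: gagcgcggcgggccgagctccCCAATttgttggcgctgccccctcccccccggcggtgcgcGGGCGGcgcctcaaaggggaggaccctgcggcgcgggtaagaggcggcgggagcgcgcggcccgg
The stretch holds 1 CCAAT box and 1 GC box, and 80.2% of it is G or C. COL8A1, on chromosome 3, encodes a chain of the hexagonal network of type VIII collagen, which lies under vessel and corneal endothelium. It had 3.97, 3.82 and 3.86 CPM in untreated shINCA1 cells, against 10.7, 9.61 and 9.71 CPM in untreated shCTRL cells, a log2 difference of -1.37 ± 0.10 (SE, adjusted p = 2.75e-07). COL8A2 was not called, with 1.05 ± 0.0895 CPM in untreated shINCA1 and 0.761 ± 0.148 CPM in untreated shCTRL cells (SD, n = 3 each).

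FACIT collagens sit on the surface of fibrils. COL14A1, on chromosome 8, encodes the chain of type XIV collagen, which regulates fibril diameter in skin and tendon. It had 90.7, 100 and 91.1 CPM in untreated shINCA1 cells, against 30.6, 33.1 and 34.7 CPM in untreated shCTRL cells, a log2 difference of 1.52 ± 0.06 (SE, adjusted p = 7.18e-10). COL12A1, its close relative on chromosome 6, had 97.8, 104 and 88.2 CPM in untreated shINCA1 cells, against 168, 177 and 185 CPM in untreated shCTRL cells, a log2 difference of -0.87 ± 0.07 (SE, adjusted p = 3.65e-07). The related chains thus differed in opposite directions. COL9A3 and COL9A2, chains of the type IX collagen of cartilage, did so too. COL9A3 had 8.53, 6.58 and 8.25 CPM in untreated shINCA1 cells, against 2.49, 2.42 and 2.54 CPM in untreated shCTRL cells, a log2 difference of 1.65 ± 0.12 (SE, adjusted p = 1.69e-07). COL9A2 had 2.89, 2.13 and 2.11 CPM in untreated shINCA1 cells, against 4.57, 4.71 and 4.08 CPM in untreated shCTRL cells, a log2 difference of -0.91 ± 0.17 (SE, adjusted p = 0.000669). COL16A1 was higher, by 0.79 ± 0.13 on the log2 scale (SE, adjusted p = 0.00026). COL19A1 had 0, 0 and 3 counts in untreated shINCA1 cells, against 32, 15 and 22 counts in untreated shCTRL cells, a ratio of 26.09 lower with a 95% exact interval of 8.561 to 129.6. Such intervals take each count as 1 read, and since low values pile up at multiples of 3 in the table, they are too narrow even for counting error.

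With IFNγ, the comparison of the lines gave nearly the same calls. In IFNγ-treated cells 10 collagen genes were higher and 17 lower in shINCA1 than in shCTRL, against 58.9% of all tested rows called, 28.7% higher and 30.2% lower. By at least 2-fold, 8 were higher and 10 lower, against 6.96% and 6.17% of all tested rows. Tested against a fold of 2, 7 collagen genes were higher and 6 lower, against 571 and 585 of the 15769 tested rows. The libraries of 27 genes did not overlap between the lines, against 66.5% of all tested rows. Both comparisons called 10 genes higher and 16 lower, and none in opposite directions. They differ in COL9A2, which was called in untreated cells alone, and in COL26A1, called with IFNγ alone. The share of all tested rows called in both comparisons was not counted. The overlap of calls is therefore not shown to be particular to collagen genes. COL17A1 had 359, 363 and 350 CPM in shINCA1 IFNγ cells, against 4.67, 4.86 and 4.64 CPM in shCTRL IFNγ cells, a log2 difference of 6.24 ± 0.05 (SE, adjusted p = 2.96e-15). COL11A1 had 11.4, 9.36 and 9.24 CPM in shINCA1 IFNγ cells, against 0.187, 0.439 and 0.299 CPM in shCTRL IFNγ cells, a log2 difference of 4.97 ± 0.20 (SE, adjusted p = 1.81e-09). COL5A2 had 2.95, 2.26 and 1.70 CPM in shINCA1 IFNγ cells, against 138, 133 and 129 CPM in shCTRL IFNγ cells, a log2 difference of -5.85 ± 0.16 (SE, adjusted p = 6.1e-11). In each of the 3 genes the groups lay as clearly apart as in untreated cells.

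Among the other genes called with IFNγ, COL6A3 had a log2 difference of -5.01 ± 0.14 (SE), COL8A1 of -1.44 ± 0.10, COL6A1 of -1.30 ± 0.06 and COL6A2 of -0.81 ± 0.07. On the higher side, COL4A3 had 2.99 ± 0.37 (SE), COL13A1 2.11 ± 0.09, COL4A4 2.08 ± 0.22, COL9A3 2.07 ± 0.12, COL14A1 1.62 ± 0.06 and COL16A1 1.13 ± 0.13. COL26A1, an uncommon secreted collagen, had 0, 12 and 6 counts in shINCA1 IFNγ cells, against 46, 28 and 26 counts in shCTRL IFNγ cells. Its call (log2 difference -2.37 ± 0.85 SE, adjusted p = 0.0307) was lost without shCTRL IFNγ library 1 or shINCA1 IFNγ library 1 or 3, with adjusted p-values of 0.0677 to 0.105. Calls of COL25A1, COL4A6 and COL1A1 were also lost when 1 library was left out. COL25A1 lost it without shCTRL IFNγ library 1 or 2 or shINCA1 IFNγ library 1 or 2, COL4A6 without shCTRL IFNγ library 2 or shINCA1 IFNγ library 3, and COL1A1 without shINCA1 IFNγ library 1.

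The neighbours of each collagen gene on its chromosome were measured beside it. For each of the 34 genes the median log2 difference of the 10 nearest tested genes on each side was taken in untreated cells. These medians ran from -0.75 to 0.48, and for the 15 genes that differed by at least 2-fold from -0.50 to 0.48. The highest was that around COL9A3 on chromosome 20, and the lowest medians were around COL21A1, COL11A2, COL19A1 and COL12A1 on chromosome 6. Around COL17A1 the median was 0.16, around COL11A1 -0.16, around COL5A2 -0.28, around COL6A3 -0.17 and around COL1A2 -0.13, each small beside the difference of that gene. For other genes the neighbours came closer to the gene's own difference. Less the median of its neighbours, COL12A1 stood at -0.44 in place of -0.87, COL9A3 at 1.17 in place of 1.65, COL4A2 at 0.03 in place of 0.15 and COL21A1, which was not called, at 0.08 in place of -0.68. Over the named genes of both line comparisons, subtraction moved 17 of 40 values by more than the spread of a library implied by the fitted SE. It reversed none.

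The IFNγ response of shINCA1 cells asks which collagen genes the cytokine moved in that line. COL13A1 and COL4A1 rose and no gene was called lower by edgeR. These 2 of 34 genes stand against 9.08% of all tested rows called, 6.13% higher and 2.95% lower. None was called at 2-fold or more, against 1.5% of all tested rows called higher and 0.146% lower at that size, and 9 genes did not overlap between the groups, against 24.9%. At an unadjusted p under 0.05 there were 10 collagen genes, a looser threshold at which the share of all tested rows was not counted. DESeq2 called 2 lower (COL11A1 and COL17A1), against 718 of 15748 rows, and limma-voom 3 (those and COL4A6), against 513 of 15769. COL13A1 had 24.6, 25.2 and 23.4 CPM in shINCA1 IFNγ cells, against 17.3, 19.0 and 19.6 CPM in untreated shINCA1 cells, a log2 change of 0.39 ± 0.08 (SE, adjusted p = 0.00862). COL4A1 had 212, 203 and 196 CPM in shINCA1 IFNγ cells, against 177, 172 and 162 CPM in untreated shINCA1 cells, a log2 change of 0.26 ± 0.04 (SE, adjusted p = 0.00165). COL17A1 had a log2 change of -0.10 ± 0.04 (SE, adjusted p = 0.16), COL11A1 of -0.40 ± 0.15 (adjusted p = 0.134) and COL5A2 of 0.09 ± 0.17 (adjusted p = 0.862), and COL1A2 stayed at 0 counts.

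In shCTRL cells, COL13A1 and COL6A2 rose with IFNγ, and COL9A3, COL7A1 and COL16A1 fell. These 5 of 34 genes stand against 17.2% of all tested rows called, 9.72% higher and 7.51% lower. None was called at 2-fold or more, against 2.23% of all tested rows called higher and 0.495% lower at that size, and 13 genes did not overlap between the groups, against 33.4%. COL13A1 had 5.75, 6.29 and 4.95 CPM in shCTRL IFNγ cells, against 4.04, 4.37 and 4.21 CPM in untreated shCTRL cells, a log2 change of 0.43 ± 0.09 (SE, adjusted p = 0.0051). COL6A2 had 52.1, 50.1 and 50.4 CPM in shCTRL IFNγ cells, against 41.4, 38.7 and 37.2 CPM in untreated shCTRL cells, a log2 change of 0.38 ± 0.07 (SE, adjusted p = 0.00253). COL9A3 had 1.60, 1.46 and 1.68 CPM in shCTRL IFNγ cells, against 2.49, 2.42 and 2.54 CPM in untreated shCTRL cells, a log2 change of -0.65 ± 0.12 (SE, adjusted p = 0.00305). None of these pairs of groups overlapped.

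COL7A1 had 12.4, 10.7 and 10.1 CPM in shCTRL IFNγ cells, against 16.1, 15.7 and 12.5 CPM in untreated shCTRL cells, a log2 change of -0.42 ± 0.10 (SE, adjusted p = 0.015). COL16A1 had 4.46, 3.53 and 4.37 CPM in shCTRL IFNγ cells, against 5.95, 6 and 5.02 CPM in untreated shCTRL cells, a log2 change of -0.46 ± 0.14 (SE, adjusted p = 0.0379). Both calls were lost when single libraries were left out. The call of COL7A1 was lost without untreated shCTRL library 1 (adjusted p = 0.055) or shCTRL IFNγ library 3 (adjusted p = 0.0689). COL16A1 lost its call without untreated shCTRL library 1 or 2 or shCTRL IFNγ library 2 or 3, with adjusted p-values of 0.0622 to 0.12. With only the 2 groups compared in the fit, COL7A1 (adjusted p = 0.0609) and COL16A1 (adjusted p = 0.0517) lost their calls, and limma-voom did not call COL9A3 (adjusted p = 0.0513) or COL16A1 (adjusted p = 0.075). The count of 3 lower genes became 1 without shCTRL IFNγ library 3, and 5 without untreated shINCA1 library 1 or 2. Over all rows, lower calls numbered 849, 1341 and 1102 in these fits, against 1184 in the main fit. With upper-quartile scaling 7 collagen genes were called lower and 2 higher in shCTRL cells, and 37.9% of all called rows were higher, against 56.4% with TMM scaling; in shINCA1 cells the same scaling gave 52.6% against 67.5%. COL1A2 (0.10 ± 0.06 SE), COL17A1 (0.05 ± 0.05), COL5A2 (-0.08 ± 0.12) and COL11A1 (-0.21 ± 0.28) were not called.

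**Figure D4:**
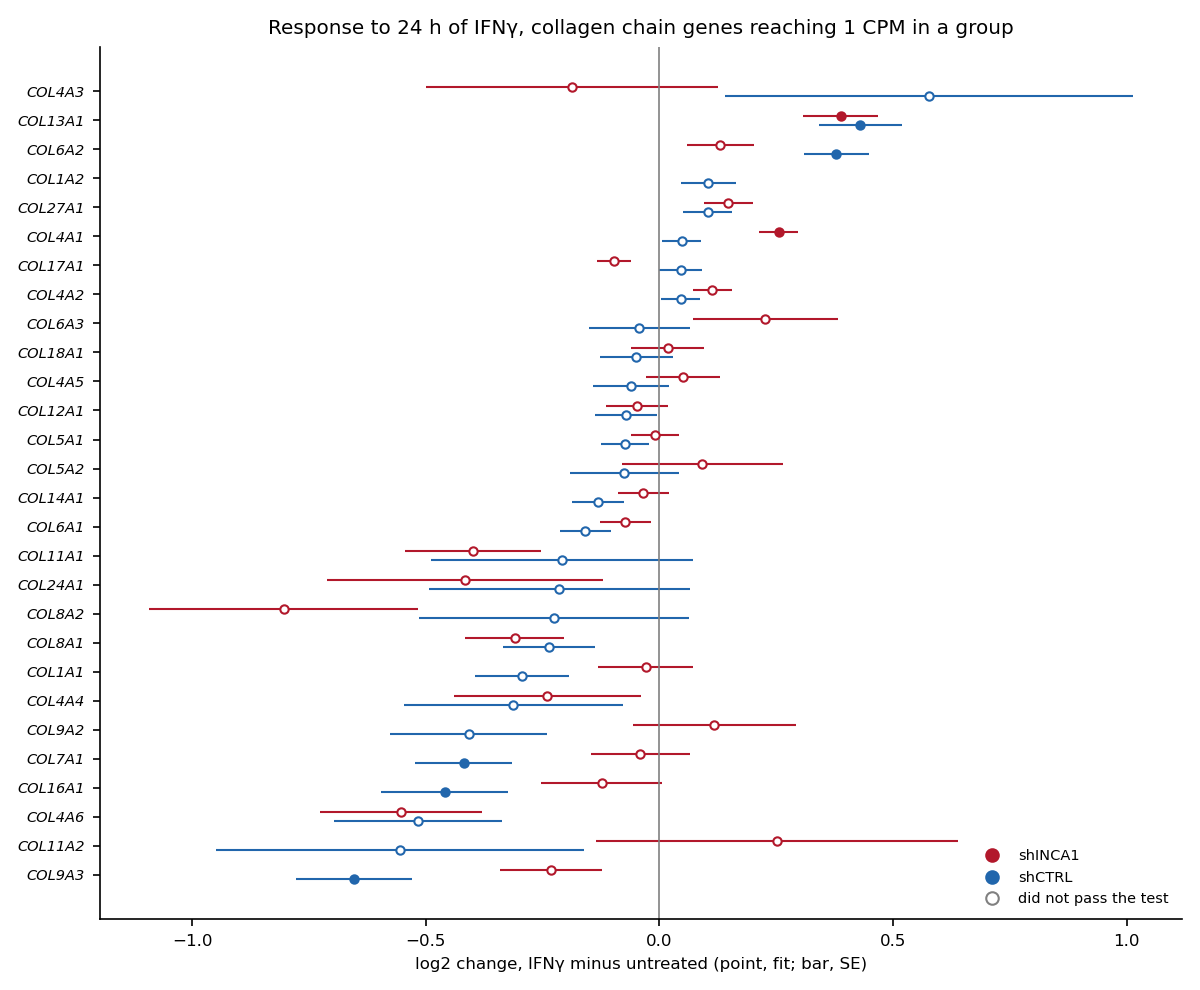
Log2 change with IFNγ, treated minus untreated, in shINCA1 and in shCTRL cells for the 28 tested collagen genes that reached a mean of 1 CPM in a group; points are fitted values with SE bars and filled points were called. COL13A1 is filled in both lines, at 0.39 in shINCA1 and 0.43 in shCTRL cells, and COL1A2 has a point for shCTRL cells alone, as it was at 0 in shINCA1 cells.

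The windows before the COL13A1 and COL7A1 starts are shown as those of the gene that rose in both lines and of the collagen gene whose window holds the palindrome TTCNNNGAA (chr10:69801656-69801905, plus strand, and chr3:48595330-48595579, minus strand, GRCh38.p14, RefSeq).
COL13A1: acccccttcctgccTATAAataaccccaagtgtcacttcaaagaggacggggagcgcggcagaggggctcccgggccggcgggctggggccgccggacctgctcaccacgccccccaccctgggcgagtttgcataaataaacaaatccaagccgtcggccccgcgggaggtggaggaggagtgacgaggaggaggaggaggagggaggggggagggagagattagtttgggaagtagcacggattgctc
COL7A1: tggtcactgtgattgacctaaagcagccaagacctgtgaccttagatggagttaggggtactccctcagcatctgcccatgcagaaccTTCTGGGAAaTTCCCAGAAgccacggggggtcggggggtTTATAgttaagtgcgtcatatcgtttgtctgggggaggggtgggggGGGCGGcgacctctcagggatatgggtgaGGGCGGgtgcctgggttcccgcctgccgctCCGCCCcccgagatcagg
COL13A1 has 1 TATAA match. COL7A1 has 2 adjoining TTCNNNGAA matches, 3 GC boxes and 1 TATAA match. Among the 44 windows of the 32 collagen genes with a RefSeq entry, TATAA was in 20.5%, CCAAT in 27.3%, GGGCGG in 54.5%, TGANTCA in 2.27% and TTCNNNGAA in 2.27%. The table has no entry for COL1A1, COL1A2, COL2A1, COL3A1, COL5A2, COL6A1, COL8A1, COL9A3, COL14A1, COL20A1, COL22A1 and COL6A5. A match is a description of letters and not evidence of binding.

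The difference between the IFNγ responses of the lines was tested for each gene with an interaction contrast. No collagen gene was called by edgeR or limma-voom, against 1.71% of all tested rows called by edgeR, 0.615% higher and 1.1% lower. DESeq2 called COL4A1, against 192 rows higher and 317 lower of the 15748 it tested. At 2-fold or more, edgeR called 0.0824% of all tested rows higher and 0.14% lower. Unadjusted p-values were under 0.05 for 5 collagen genes. The share of all tested rows at that looser threshold was not counted, so this number cannot be set against the shares above. COL4A1 had a difference of 0.21 ± 0.06 (SE, unadjusted p = 0.00445, adjusted p = 0.134), with a 95% interval of 0.08 to 0.34. COL9A3 had 0.42 ± 0.17 (SE, adjusted p = 0.335), COL7A1 0.38 ± 0.15 (adjusted p = 0.334), COL6A2 -0.25 ± 0.10 (adjusted p = 0.347) and COL17A1 -0.14 ± 0.06 (adjusted p = 0.403). A response called in 1 line and not in the other, as for COL6A2, COL7A1, COL9A3 and COL16A1, was therefore not shown to differ between the lines. For COL13A1 the difference was -0.04 ± 0.12 (SE, adjusted p = 0.953), with a 95% interval of -0.30 to 0.22. For COL11A1 it was -0.19 ± 0.32 (adjusted p = 0.905) and for COL5A2 0.17 ± 0.21 (adjusted p = 0.855), while COL1A2 could not be compared, being at 0 in shINCA1 cells.

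Collagen chains need a set of other proteins to be made, secreted, assembled and removed, and 99 such genes in 8 lists were read in the same fit. Of the 90 tested, 32 were higher and 31 lower in untreated shINCA1 than in untreated shCTRL cells, or 70.0%, against the 56.9% of all tested rows. With IFNγ 32 were higher and 35 lower, or 74.4%, against 58.9%. Between untreated lines the median log2 difference of a list ran from -1.30 for proteins that bind fibrils to 0.58 for the lysyl oxidases, against -0.01 over all tested rows.

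Among the hydroxylases and glycosyltransferases that modify the chains in the endoplasmic reticulum, 6 of 12 were higher and 1 lower in untreated shINCA1 cells. That is 58.3%, close to the 56.9% of all tested rows. COLGALT1, which adds galactose to hydroxylysine, had 205 ± 5.21 CPM in untreated shINCA1 and 116 ± 3.18 CPM in untreated shCTRL cells (SD, n = 3 each), a log2 difference of 0.82 ± 0.03 (SE). PLOD2 (0.74 ± 0.04 SE), a lysyl hydroxylase, and P4HA1 (0.87 ± 0.05) and P4HB (0.25 ± 0.02), the subunits of prolyl 4-hydroxylase, were higher too. In the list of folding and secretion genes 5 of 15 were higher and 8 lower, or 86.7%, against 56.9%. SERPINH1, the chaperone HSP47 that binds the triple helix, had 0, 3 and 0 counts in untreated shINCA1 cells, against 269, 203 and 251 counts in untreated shCTRL cells. The ratio was 273.3 lower, with a 95% exact interval of 93.16 to 1328 that is too narrow in the same way as that of COL19A1. In shINCA1 IFNγ cells the counts were 0, 0 and 3, against 138, 294 and 226 in shCTRL IFNγ cells. The chaperones HSPA5 (-0.63 ± 0.02 SE) and CRTAP (-0.52 ± 0.03) were lower, and PPIB (0.34 ± 0.02), a prolyl isomerase, was higher.

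Of the genes for propeptide cleavage 1 of 7 was higher and 3 lower in untreated shINCA1 cells, or 57.1%, close to the 56.9% of all tested rows. With IFNγ 0 were higher and 2 lower, or 28.6%, against 58.9%. TLL1, a tolloid protease, was at 0 in untreated shINCA1 cells and had 421, 299 and 357 counts in untreated shCTRL cells, so it was at least 135.7-fold lower. BMP1 (-0.42 ± 0.06 SE) and TLL2 (-0.81 ± 0.21), proteases of the same family, were also lower, and ADAMTS3, which removes amino-terminal propeptides, was higher at the edge of the threshold (0.42 ± 0.17, adjusted p = 0.05). Lysyl oxidases, which crosslink fibrils, were 3 higher and 2 lower of 5 in untreated shINCA1 cells, or 100%, against 56.9%. LOXL2 (0.63 ± 0.04 SE), LOXL1 (0.58 ± 0.05) and LOXL4 (0.96 ± 0.22) were higher and LOX (-0.59 ± 0.11) lower. LOXL3 was lower too, with the largest change of the list (-1.37).

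Proteins that sit on fibrils or join them to cells were 3 higher and 6 lower of 10 in untreated shINCA1 cells. That is 90%, against 56.9% of all tested rows. FN1, the fibronectin gene, had 62.5 ± 3.54 CPM in untreated shINCA1 and 296 ± 7.72 CPM in untreated shCTRL cells (SD, n = 3 each), a log2 difference of -2.24 ± 0.05 (SE). TGFBI (-1.59 ± 0.03 SE) and SPARC (-1.03 ± 0.03), which bind collagen, were lower, and the basement membrane protein gene FBLN1 (1.15 ± 0.03) was higher. The receptors for collagen were 3 higher and 3 lower of 11, or 54.5%, close to the 56.9% of all tested rows. DDR2, a tyrosine kinase receptor for fibrillar collagen, had 0.570 ± 0.138 CPM in untreated shINCA1 and 3.49 ± 0.708 CPM in untreated shCTRL cells (SD, n = 3 each), a log2 difference of -2.62 ± 0.26 (SE). ITGB1 (-0.28 ± 0.05 SE) was lower, and CD44 (0.43 ± 0.02) and ITGA2 (0.70 ± 0.08), a collagen-binding integrin chain, were higher.

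Collagen-cleaving proteases and their inhibitors were 6 higher and 2 lower of 10, or 80%, against 56.9% of all tested rows. MMP3, stromelysin, had 13.0 ± 0.532 CPM in untreated shINCA1 and 1.10 ± 0.357 CPM in untreated shCTRL cells (SD, n = 3 each), a log2 difference of 3.58 ± 0.16 (SE). The gelatinase gene MMP2 (0.87 ± 0.03 SE) and the inhibitor gene TIMP2 (0.39 ± 0.03) were higher. FAP, a protease of activated fibroblasts, had 3, 6 and 0 counts in untreated shINCA1 cells, against 225, 165 and 199 counts in untreated shCTRL cells, a ratio of 74.22 lower (95% exact interval 38.83 to 163.1, too narrow in the same way). Regulators of collagen genes were 5 higher and 6 lower of 20, or 55%, close to the 56.9% of all tested rows. The receptor gene TGFBR2 (1.02 ± 0.03 SE) and CTGF (0.69 ± 0.04), a matrix growth factor, were higher, and the bone transcription factor gene RUNX2 (-1.06 ± 0.07 SE) was lower. Markers of fibroblasts and mural cells summed to 230 to 241 CPM in untreated shINCA1 cells, against 358 to 377 CPM in untreated shCTRL cells, with THY1 the highest, and LUM at 0 in shINCA1 cells. Of the 9 tested members, which include FAP, 2 were higher and 6 lower, or 88.9%, against 56.9% of all tested rows. The part of these genes in the collagen differences was not tested.

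**Figure D5:**
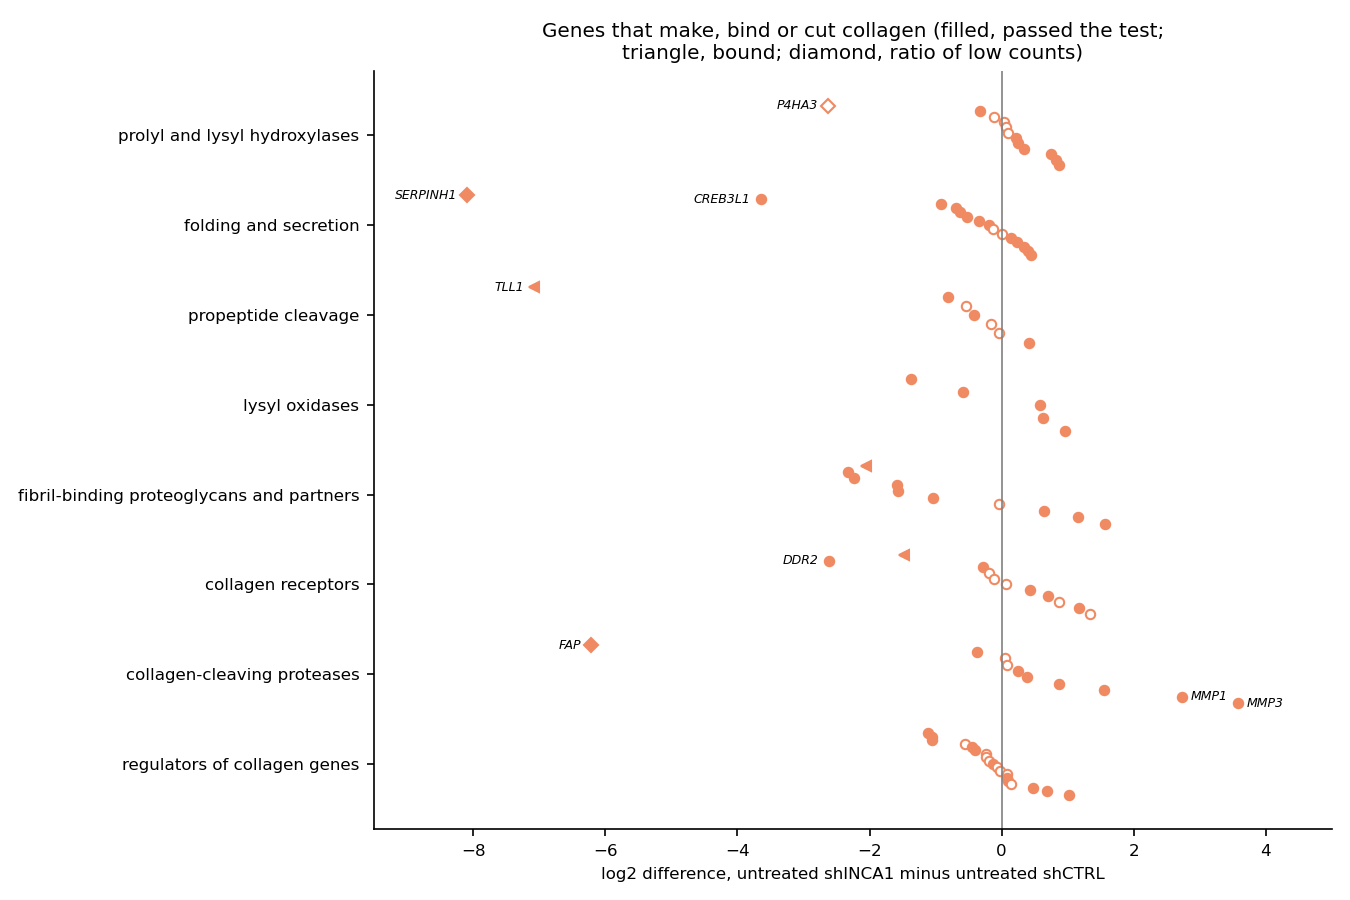
Log2 difference, untreated shINCA1 minus untreated shCTRL, of the tested genes on 8 lists of collagen biosynthesis, binding, cleavage and control; filled symbols were called, triangles are bounds and diamonds ratios of low counts. SERPINH1, TLL1 and FAP lie farthest left, at ratios of 273.3, at least 135.7 and 74.22 lower, and MMP3 farthest right, at 3.58.

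With IFNγ, 4 of the 90 genes rose and 10 fell in shINCA1 cells, or 15.6%, against 9.08% of all tested rows. In shCTRL cells 10 rose and 13 fell, or 25.6%, against 17.2%. CIITA, which codes for the class II transactivator and has been described as a repressor of COL1A2, was at 0 in all untreated libraries and had 17.0 ± 1.15 CPM in shINCA1 IFNγ and 37.5 ± 1.63 CPM in shCTRL IFNγ cells (SD, n = 3 each). That is at least 348.1-fold and 677.6-fold higher than untreated cells of the same line. Beside it, COL1A2 in shCTRL cells had 44.6 ± 2.69 CPM with IFNγ and 41.5 ± 0.805 CPM without (SD, n = 3 each). The part of CIITA in the level of COL1A2 was not tested, and RNA was read only at 24 h. THBS1, thrombospondin, fell by 0.38 and TNC, tenascin, rose by 0.24 in shINCA1 cells, and THBS1 fell by 0.76 and TNC rose by 0.45 in shCTRL cells. Both genes were also called in the difference of the responses, at 0.38 ± 0.03 and -0.21 ± 0.04 (SE), as was SMAD3 at 0.21 ± 0.05, together 3.33% of the 90 genes against 1.71% of all tested rows. COLGALT2, DDR1, CD44, TIMP3 and MMP14 fell in both lines, and PDIA3 and SEC24D rose in shCTRL cells. In shINCA1 cells the lists of folding and secretion, propeptide cleavage and lysyl oxidases had no call by edgeR. DESeq2 and limma-voom each gave them 1, 0 and 0 calls. Over all rows DESeq2 called 995 higher and 718 lower of 15748, and limma-voom 992 and 513 of 15769. At an unadjusted p under 0.05 these lists held 3, 1 and 0 genes, with no share over all tested rows counted.

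The 10 collagen genes outside the test had few counts. COL20A1 and COL23A1 were at 0 in all libraries. COL15A1 had 0, 0 and 0 counts in shINCA1 IFNγ cells, against 19, 6 and 8 counts in shCTRL IFNγ cells, and was called lower when the filter on low counts was left out. The highest count in a library was 12 for COL2A1, 11 for COL22A1, 8 for COL9A1 and COL28A1, 6 for COL10A1, and 3 for COL6A5 and COL6A6. At this depth 3 counts correspond to 0.0487 to 0.0561 CPM, so differences below that level could not be detected for these genes.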

How the data were processed

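RNA-seq of 12 libraries was analysed from 1 table of estimated counts per gene symbol, as deposited by the authors. The submitters' processing notes name FastQC, Trimmomatic, HISAT2, StringTie and build hg19, without versions; the counting step and annotation are not given there. Low values piled up at multiples of 3 (5790 values of 3, against 2186 of 2 and 1317 of 4), so small counts are not single reads.

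Counts were taken as whole numbers and fitted for all 12 libraries together with edgeR 4.0.16 (R 4.3.3; TMM, the filterByExpr filter, quasi-likelihood F test), and p-values were adjusted over 15769 rows by the Benjamini-Hochberg method. The biological coefficient of variation was 10.6%. SEs and 95% intervals of log2 changes were derived from each log2 change and its F statistic. Comparisons were shINCA1 minus shCTRL in each condition, IFNγ minus untreated in each line and the difference of these responses. DESeq2 1.42.0 and limma 3.58.1 (voom) were alternatives, as were other scalings, filters and thresholds, a replicate block and leaving out each library. Fold bounds use a floor of 3 counts per library. Group totals of at most 9 counts are given as ratios with exact 95% intervals. Intervals and floors take each count as 1 read and leave out all error but that of counting; with the pile-up at multiples of 3 they understate even that. Lengths came from GENCODE 44, and gene order and sequences from RefSeq GRCh38.p14, whose coordinates are not those of hg19.

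Members and lists were chosen with earlier results of these data known. The naming rule took COL1A2, COL17A1, COL11A1 and COL5A2 in every comparison, up to 10 called collagen genes in each direction with at least 0.5 CPM in a group, and on each pathway list up to 4 genes by p between untreated lines and up to 2 otherwise. Other genes named were chosen after their values were seen. Some genes of the lists that the rule would name are not reported here.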

Additional observations from a re-analysis of the deposited data

How the results depend on the processing

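Between the lines, requiring a fold of at least 2 left 6 lower collagen genes in untreated cells and 6 with IFNγ. Of all 15769 tested rows it left 583 and 585 lower. The same requirement left 0 higher collagen genes in the IFNγ response of shINCA1 cells, against 153 of all tested rows. In that of shCTRL cells it left 0 higher and 0 lower, against 223 and 10 of all tested rows. Lower collagen genes in the shINCA1 response numbered 2 by DESeq2, 3 by limma-voom and 1 with only the 2 groups compared in the fit. Over all rows these settings called 718 of 15748, 513 of 15769 and 360 of 15037 lower. In the shCTRL response, lower collagen genes numbered 7 with upper-quartile scaling, 5 by DESeq2 and 1 at an adjusted p of 0.01. Over all rows the numbers were 1970 of 15769, 1342 of 15748 and 605 of 15769. With a library left out, 1 to 5 collagen genes were lower in that response (1 without shCTRL IFNγ library 3), against 849 to 1341 of all rows. DESeq2 called 1 collagen gene higher in the difference of responses, against 192 of 15748 rows.

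Leaving out each library gave 8 to 10 higher and 14 to 18 lower collagen genes between untreated lines, and 9 to 12 and 15 to 17 with IFNγ. Over all rows the ranges were 3858 to 4458 and 4326 to 4770 untreated, and 4177 to 4598 and 4352 to 4837 with IFNγ. For collagen genes the shINCA1 response kept counts of 2 and 0, the shCTRL response 2 higher, and the difference 0. Over all rows the shINCA1 response held 756 to 954 higher and 281 to 481 lower, and the shCTRL response 1171 to 1646 higher. The difference held 57 to 92 higher and 95 to 154 lower. Of uncalled changes of single genes, COL5A2 in shINCA1 cells ranged from -0.1354 to 0.2593, COL17A1 in shCTRL cells from -0.0142 to 0.0772 and COL11A1 in shCTRL cells from -0.5745 to 0.0088. The difference of responses ranged from -0.4120 to 0.1714 for COL11A1 and from -0.0598 to 0.3264 for COL5A2. With upper-quartile scaling COL17A1 in shCTRL cells was at -0.0046. The cause of these shifts was not tested.

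With the replicate number as a block the collagen calls numbered 26 and 25 between the lines, untreated and with IFNγ, and 2, 4 and 0 in the shINCA1 response, the shCTRL response and their difference. Over all 15769 tested rows the block gave 4280 higher and 4619 lower calls between untreated lines, and 4468 and 4718 with IFNγ. It gave 943 and 432 in the shINCA1 response, 1509 and 1125 in the shCTRL response, and 88 and 149 in their difference. The block ended the calls of COL25A1 between untreated lines (adjusted p = 0.0582), of COL25A1 and COL26A1 with IFNγ, and of COL16A1 in the shCTRL response. The 18 same-numbered pairs had correlations of -0.0358 to 0.0671. Such values cannot decide whether samples of the same number were handled together, and the labels do not say. Without the 10 largest rows, collagen genes held 0.2139% and 0.2148% of counts in shINCA1 IFNγ and untreated shINCA1 cells, and 0.2266% and 0.2414% in shCTRL IFNγ and untreated shCTRL cells. Depth limits COL3A1, COL19A1, COL25A1 and COL26A1, whose groups hold few counts.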
